A study of Mus musculus with 9 samples.

Results

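The expression of 10 genes that store, take up, export or sense iron was described in splenic plasmacytoid dendritic cells (pDCs) stimulated with R848. The genes were chosen by name and not by their level: the ferritin chains *Ftl1* and *Fth1*, the ferritin receptor *Ncoa4*, the uptake genes *Tfrc*, *Slc11a1*, *Slc11a2* and *Steap3*, the exporter *Slc40a1*, and the iron regulatory proteins *Aco1* and *Ireb2*. All 10 were among the 52550 genes listed in the expression file, and 9 of the 10 had reads. The series compares RNA from pDCs of C57BL/6 mice with 3 *Ncf1* genotypes, G/G, G/A and A/A, with 3 samples of each. The A allele is a knock-in of the NCF1 p.R90H change, made with CRISPR/Cas9 in zygotes and crossed with C57BL/6J mice, so every cell of an A/A mouse carries it. The methods describe female mice of 10 to 12 weeks and cells sorted from spleen as CD11c-int SiglecH+ PDCA1+. All 9 samples, G/G controls included, had 12 h of R848, a ligand of the RNA sensor TLR7, given at 10 μg/mL in the methods, and no unstimulated sample is among them. Neither the labels nor the methods say whether a sample was 1 mouse or a pool.

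The data below come from 1 library, A/A replicate 1, and the other 8 samples were not analysed here. No genotype comparison could therefore be made, no level has a replicate error, and no test was run. All intervals are 95% intervals for counting error only, and sequencing reads are copies made by PCR, so the true uncertainty is wider. The library held 31408298 reads on 17664 genes. *Ncf1* itself had 1079 CPM (reads per 1000000 reads of the library), but its level does not check the genotype, because the knock-in changes its sequence. All 11 genes of a pDC marker list had reads, with a median of 374 CPM, so the labelled cell type was present. The methods state female mice, yet the Y-linked gene *Ddx3y* had 102 CPM and *Xist* was listed at 0, so the library labelled A/A replicate 1 goes against them, and all values below rest on it.

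Cells take up iron as transferrin bound to the transferrin receptor, reduce it in the endosome, and pass it to the cytosol through a divalent metal transporter. Iron that is not used is kept inside ferritin, a shell of heavy and light chains, from which NCOA4 delivers it to the lysosome, and ferroportin is the route out of the cell. The iron regulatory proteins, encoded by *Aco1* and *Ireb2*, bind a hairpin in messenger RNAs, the iron-responsive element, when iron is low. Bound in a 5′ UTR the hairpin blocks translation, and in the 3′ UTR of the transferrin receptor message it protects the message from decay. In spleen, iron recycling is best known in the macrophages of the red pulp. A messenger RNA level therefore gives only part of the amount of these proteins.

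The hairpins in the messages of the members are shown here because such hairpins are what the iron regulatory proteins are known to bind. They were found in the GENCODE M21 transcripts (GRCm38) by a search on the transcript's own strand for a C, 5 bases, the loop CAGTGN with any last base but G, and 5 bases that pair with the first 5, G–T pairs allowed. This pattern of 17 bases was found in 4 of the 10 genes, at 7 sites. Each line gives 30 bases from 5′ to 3′ with the loop in capitals, as DNA letters. The first is in the 5′ UTR of *Ftl1* (chr7:45459778-45459807, minus strand), the next in the 5′ UTR of *Fth1* (chr19:9982732-9982761, plus strand) and the next in the 5′ UTR of *Slc40a1* (chr1:45925464-45925493, minus strand). The last 4 are in the 3′ UTR of *Tfrc*, all on the plus strand, at chr16:32631219-32631248, chr16:32631598-32631627, chr16:32631663-32631692 and chr16:32631710-32631739.
Ftl1: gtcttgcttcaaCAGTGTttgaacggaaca
Fth1: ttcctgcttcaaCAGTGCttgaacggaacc
Slc40a1: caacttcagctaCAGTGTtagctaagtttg
Tfrc site 1: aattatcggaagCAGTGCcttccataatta
Tfrc site 2: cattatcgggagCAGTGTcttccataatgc
Tfrc site 3: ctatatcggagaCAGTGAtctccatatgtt
Tfrc site 4: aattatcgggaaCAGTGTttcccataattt

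The 5 pairs next to the loop were the same in both ferritin chains, while some bases further out differed. Those pairs had other letters in *Slc40a1*. The sites of *Tfrc* lay within 508 bases of its transcript, and site 2 used 1 G–T pair. Among 21901 coding genes searched, 23 (0.105%) held the pattern in a 5′ UTR and 100 (0.457%) held it in a 3′ UTR. *Tfrc* was the 1 gene with more than a single 3′ UTR site. No match was found in the UTRs of *Slc11a1*, *Slc11a2*, *Ireb2*, *Aco1*, *Ncoa4* or *Steap3*, which says only that this pattern is not in their annotated UTRs. The pattern allows no bulge or mismatch within the 5 pairs, so hairpins of another shape would be missed in any gene. Of the 23 genes with a 5′ UTR match, 19 had reads, and the median level of those 19 was 6.86 CPM per kb of exon. Of all 21819 protein-coding genes, 12201 had reads, with a median of 3.91. The 19 genes include *Ftl1-ps1* (198), a copy of *Ftl1*. *Ftl1* ranked 1 and *Fth1* ranked 2 among the 19, and *Slc40a1* ranked 16. *Tfrc* ranked 22 of the 67 genes with reads and a 3′ UTR match, whose median was 3.32 on the same scale. A match is a description of sequence, and binding was not measured.

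The 10 genes together took 491495 reads, 1.56% of the library (exact interval 1.56% to 1.57%), and the light and heavy ferritin chains alone took 94.9% of those reads. Since long genes collect more reads, levels of different genes are given below as CPM per kb of exon, with the exon bases taken from GENCODE M21 inside the gene limits of the deposited file. On this scale the order was *Ftl1*, *Fth1*, *Ncoa4*, *Slc11a1*, *Tfrc*, *Aco1*, *Ireb2*, *Slc11a2*, *Slc40a1*, with *Steap3* at 0, and the level of *Ftl1* was 14700-fold that of *Slc40a1*. The size of that gap depends on the length used, and per kb of the longest coding transcript *Ftl1* had 12022 CPM and *Slc40a1* 1.58. Per kb of exon, 6 of the 10 genes were above the median of the 12201 protein-coding genes with reads, which was 3.91. Neighbours in this order had separate counting intervals except *Slc11a2* and *Slc40a1*. Without replicate samples, no neighbouring levels can be said to differ beyond the spread between libraries.

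**Figure D1:**
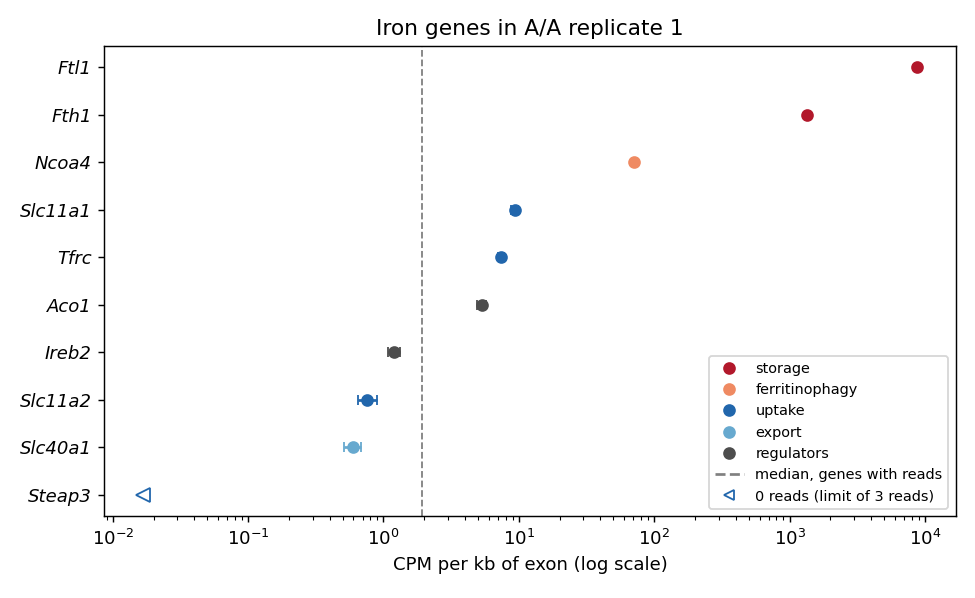
Level of each of the 10 genes in A/A replicate 1, in CPM per kb of exon on a log axis, coloured by role, with bars for the 95% Wilson counting interval and a dashed line at the median of all genes with reads (1.91). *Ftl1* (8685), *Fth1* (1346) and *Ncoa4* (71.4) sit far to the right, 3 genes lie left of the line, and the open triangle puts *Steap3*, with 0 reads, at the level that 3 reads would give (0.0167).

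The storage genes stood at the top of the library. *Ftl1* (ENSMUSG00000050708.16, chr7:45457944-45459884 of GRCm38, minus strand), which encodes the ferritin light chain that helps iron form its mineral core, had 365507 reads, or 11637 CPM (11600 to 11675). Its level was 8685 CPM per kb of exon, rank 3 of the 17632 genes with reads and an exon length, and rank 2 among protein-coding genes. *Fth1* (ENSMUSG00000024661.6, chr19:9982703-9985092, plus strand), which encodes the heavy chain with the ferroxidase site that oxidises iron for storage, had 101048 reads, or 3217 CPM (3197 to 3237). Its level was 1346 CPM per kb of exon, rank 34 of the same genes. Both chains were thus above at least 99.8% of genes with reads.

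The light chain exceeded the heavy chain on each scale, but the size of the gap depended on the length used. Per kb of exon the ratio of *Ftl1* to *Fth1* was 6.45 (exact interval 6.41 to 6.50). In reads it was 3.62, and per kb of the longest coding transcript, also measured inside the file's gene limits, it was 3.24. The limits of *Fth1* in the file differ from those in GENCODE M21, whose exons cover 3469 bases against 2390 inside the file's limits, whereas those of the other 9 genes are identical in both. With all annotated exon bases the ratio was 9.36. The direction is the same under each definition, and a ratio of messages does not give the ratio of chains in the ferritin shell.

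Exons of 2 other listed genes lie over *Ftl1*, and both carried many reads. *Gm22133*, annotated as a miRNA gene on the same strand (chr7:45458089-45458197), is 109 bases long and lies wholly inside a *Ftl1* exon. It had 66176 reads, 18.1% of the number on *Ftl1*, and its 19330 CPM per kb of exon was the highest value of all genes. Its length is below the 150 bases of a read, so that value is not comparable with those of longer genes. *Gm10252*, a gene model on the opposite strand (chr7:45459469-45460300) that is marked as awaiting experimental support, has 42.7% of its 832 bases inside *Ftl1* exons and had 98052 reads, 26.8% of the number on *Ftl1*. Strand cannot separate *Gm22133* from *Ftl1*, since both lie on the same strand. For *Gm10252* it could, but the sources used here do not say whether reads were counted by strand. Reads of *Ftl1* and of these genes therefore cannot be told apart, and the level of *Ftl1* is uncertain by that much. With the reads of both added to *Ftl1*, the ratio of *Ftl1* to *Fth1* per kb of exon was 9.35. Of the other members, only *Slc11a2* had an exon overlap, 6.33% of its exon bases under *Gm5475*, which had 0 reads.

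**Figure D2:**
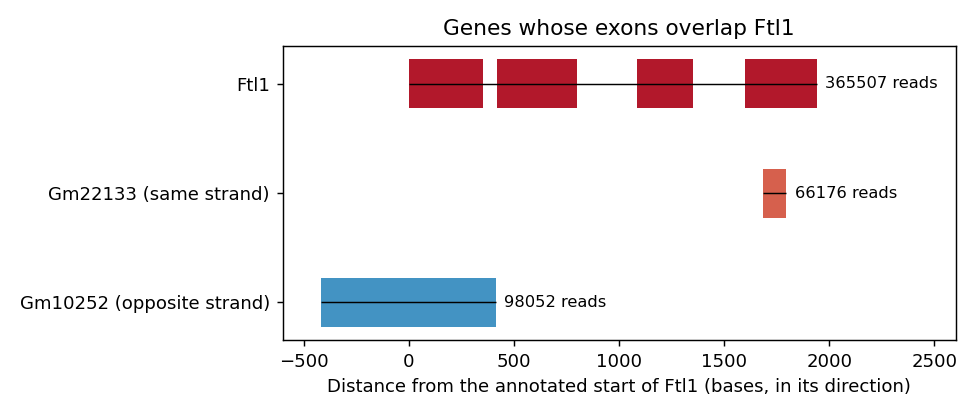
Exons of *Ftl1*, *Gm22133* and *Gm10252* drawn to scale as bars, with the distance from the annotated start of *Ftl1* in bases on the horizontal axis and 1 lane per gene. *Gm22133* (66176 reads) lies inside the last *Ftl1* exon, and *Gm10252* (98052 reads) covers the first exon of *Ftl1* (365507 reads) and extends past its start.

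Ferritin genes have many processed copies in the mouse genome, which can take or lend reads. Of all 50-base windows in *Ftl1* transcripts, 50.9% also occurred in another gene, as did 23.9% of its 150-base windows, the length of a read in this library. Of 9 copies of *Ftl1* that do not overlap it, 7 had more than 3 reads, and all 9 together had 12707 reads, 3.48% of the number on *Ftl1*. *Fth1* shared 1.59% of its 50-base windows and none of its 150-base windows, and its copy *Gm6977* had 101 reads. Adding the reads of copies to the gene they resemble gave a ratio of *Ftl1* to *Fth1* of 6.67 per kb of exon. The counts on copies were thus small beside those on the ferritin chains themselves. How reads that match several genes were counted is not stated in the sources used here. These counts therefore set no limit on reads that *Ftl1* may have lost in that way.

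*Ncoa4* (chr14:32159865-32179855, plus strand), the receptor that carries ferritin into autophagosomes so that its iron is released in the lysosome, had 21005 reads, or 669 CPM (660 to 678). Its level was 71.4 CPM per kb of exon (70.5 to 72.4), above 95.8% of genes with reads. *Fth1*, whose product is the chain that NCOA4 binds, exceeded it 18.9-fold on this scale (18.6 to 19.1). Per kb of the longest coding transcript that ratio was 22.6, and in reads it was 4.81. *Ncoa4* in turn exceeded *Tfrc* 9.72-fold per kb of exon, 17.7-fold per kb of the longest coding transcript and 14.7-fold in reads. Its windows were less unique than those of the transporters, with 17.9% of 50-base windows and 14.3% of 150-base windows found in another gene. Its processed copy *Gm6768* had 1965 reads, 9.35% of the number on *Ncoa4*, and 94.5% of the 50-base windows of that copy occurred in *Ncoa4*. The remaining 7 members and *Fth1* shared none of their 150-base windows with another gene.

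**Figure D3:**
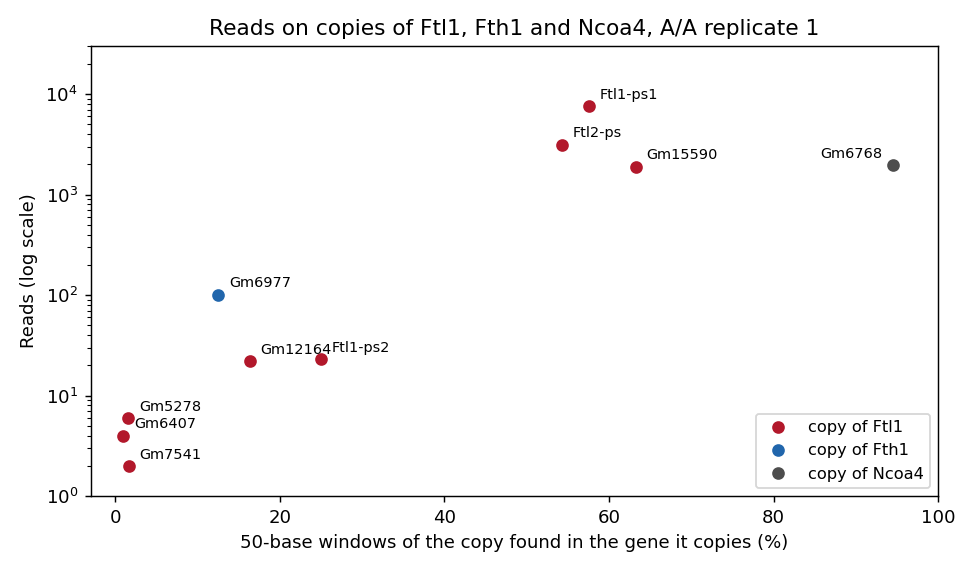
Reads on copies of *Ftl1*, *Fth1* and *Ncoa4* (log axis) against the share of each copy's 50-base windows found in the gene it copies, in percent, with 1 point per copy with reads. *Ftl1-ps1* has the most reads (7622), and *Gm6768* is the copy most like its source (94.5% of windows).

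Of the uptake genes, 3 had reads at middle or low levels. *Tfrc* (chr16:32608920-32632794, plus strand), the transferrin receptor and the main door for iron in dividing cells, had 1427 reads, or 45.4 CPM (43.1 to 47.9). Its level was 7.35 CPM per kb of exon (6.97 to 7.74), above 72.8% of genes with reads, and the level of *Fth1* was 183-fold that of *Tfrc* (174 to 193). The size of that ratio depended on the length used, at 400 per kb of the longest coding transcript and 70.8 in reads. *Slc11a1* (chr1:74375195-74386062, plus strand), or NRAMP1, in its functional form moves divalent metals out of the phagosome and is known for resistance to intracellular microbes. Whether the allele of this mouse strain encodes a working protein was not tested, so the level describes the message only. *Slc11a1* had 1084 reads, or 34.5 CPM (32.5 to 36.6), and a level of 9.32 CPM per kb of exon (8.78 to 9.89). Per kb of exon it stood 1.27-fold above *Tfrc* (1.17 to 1.37), but *Tfrc* had 1.32 times as many reads, so their order turns with the length correction.

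*Slc11a2* (chr15:100387898-100425072, minus strand), or DMT1, carries ferrous iron from the endosome into the cytosol. It had 152 reads, or 4.84 CPM (4.13 to 5.67), and its level of 0.762 CPM per kb of exon (0.650 to 0.893) lay above 35.4% of genes with reads. Its phagosomal relative *Slc11a1* exceeded it 12.2-fold per kb of exon (10.3 to 14.6). *Steap3* (chr1:120190757-120272705, minus strand), which reduces iron in the transferrin endosome of red cell precursors, had 0 reads. The upper counting limit for 0 reads is 0.122 CPM, and the floor of 3 reads is 0.0955 CPM. Both apply only if a 0 is an unfiltered count. Of the 12201 protein-coding genes with reads, 98.9% had more than 3, and whether low values had been set to 0 was not tested. The other 3 genes of the STEAP family, *Steap1*, *Steap2* and *Steap4*, were also listed at 0 reads.

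*Slc40a1* (chr1:45908068-45926523, minus strand) encodes ferroportin, the exporter of iron from cells. It had 167 reads, or 5.32 CPM (4.57 to 6.19), and a level of 0.591 CPM per kb of exon (0.508 to 0.687), above 31.8% of genes with reads and the lowest of the 9 detected genes. *Tfrc* exceeded it 12.4-fold on this scale (10.6 to 14.7). Per kb of the longest coding transcript this ratio was 5.89, since the annotated exons of *Slc40a1* are long for its main message. On that scale *Slc40a1* (1.58) also passed *Slc11a2* (1.10), so which of the pair is lower depends on the length used.

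*Slc40a1* and *Slc11a1* are also expressed by macrophages, so markers of that lineage are given beside them. Of 11 red pulp macrophage genes, 10 had reads with a sum of 2445 CPM, of which *Axl* alone made 2252, and *Cd163* was listed at 0. Without *Axl* the sum was 192 CPM, with *Spic*, the factor that drives red pulp macrophage development, at 103 CPM, *Vcam1* at 11.2 CPM and *Cd5l* at 1.53 CPM. All 8 monocyte and macrophage genes had reads, with a sum of 2058 CPM. Of 10 erythroid genes 6 were at 0, both beta globins among them, and the sum of the list was 4.39 CPM, most of it from the alpha globins *Hba-a1* (2.83 CPM) and *Hba-a2* (0.796 CPM). Of 10 neutrophil genes 7 had reads with a sum of 59.7 CPM, and *Elane*, *Mpo* and *Retnlg* were at 0. Lists of conventional dendritic cell, B cell and T cell genes summed to 358, 10.4 and 0.923 CPM. In a bulk library a few cells with much of a message cannot be told apart from many cells with little, and the part of other cells in the levels of *Slc40a1* and *Slc11a1* was not tested.

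The iron regulatory proteins were both detected, below the ferritin chains they act on. *Aco1* (chr4:40143081-40198338, plus strand) encodes IRP1, which is a cytosolic aconitase while it holds an iron-sulfur cluster and binds RNA without it. It had 750 reads, or 23.9 CPM (22.2 to 25.7), and a level of 5.31 CPM per kb of exon (4.94 to 5.71). *Ireb2* (chr9:54863789-54912530, plus strand) encodes IRP2, which is degraded when iron is plentiful. It had 355 reads, or 11.3 CPM (10.2 to 12.5), and a level of 1.19 CPM per kb of exon (1.07 to 1.32). The message of IRP1 thus exceeded that of IRP2 4.45-fold per kb of exon (3.92 to 5.07) and 3.18-fold per kb of the longest coding transcript. IRP2 is controlled mainly through its protein, which these data do not measure.

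The other genes of iron handling, 107 in 7 lists, were widely covered. Of the 107, 89 (83.2%) had more than 3 reads, against 55.3% of the 21819 protein-coding genes, and 17 were at 0. The median level of the 90 with reads was 4.80 CPM per kb of exon, against 3.91 for protein-coding genes with reads. All 107 together held 0.813% of the library, less than the ferritin chains alone (1.49%). The lists were assembled by hand, and these shares are a description.

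Of 24 genes of iron and heme transport, 16 had reads. The median of those 16 was 0.884 CPM per kb of exon, below the 3.91 of protein-coding genes with reads. Over all 24, genes at 0 included, it was 0.319, against 0.214 for all 21819 protein-coding genes. The highest of the 24 were *Snx3* (115), a sorting protein that returns the transferrin receptor to the surface, the heme transporter *Slc48a1* (23.0) and *Exoc6* (19.3), a subunit of the exocyst. Apart from the STEAP genes named above, those at 0 were *Tfr2*, *Cybrd1*, *Hephl1*, *Slc22a17* and *Cd163*. Of the 13 genes of the hepcidin axis, by which liver controls ferroportin, 7 were at 0: *Hamp* and *Hamp2*, the hepcidin genes, with *Hfe2*, *Tmprss6*, *Bmp6*, *Bmpr1a* and *Acvr1*. Of the 13, 6 had more than 3 reads, against 55.3% of all protein-coding genes. The 3 highest of that list were *Stat3* (108), *Il6* (17.2) and *Il6ra* (2.80), which serve cytokine signalling in general.

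Iron chaperones, regulators of storage and turnover, and the machinery of iron-sulfur clusters and heme were nearly all present. Of 19 chaperone, turnover and control genes, 17 had reads, with *Ftmt* (mitochondrial ferritin) and *Epas1* at 0. The highest were *Pcbp1* (182 CPM per kb of exon), which brings iron to ferritin, and the RNA decay factors *Zfp36* (175) and *Zfp36l1* (110). All 19 genes of mitochondrial iron and clusters had reads, with a median of 3.90 and *Iscu* (38.7), the scaffold on which clusters are built, as the highest, and *Hspa9*, a chaperone of their assembly, at 31.1. All 9 genes of cytosolic clusters had reads as well, with a median of 10.4, led by *Fam96a* (56.6), *Fam96b* (49.5) and *Nubp2* (48.9).

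Of 15 heme genes 14 had more than 3 reads, and *Alas2*, the erythroid form of the first enzyme of heme synthesis, had 3. The most abundant were the heme oxygenases *Hmox1* (54.4) and *Hmox2* (46.1), which free iron from heme, and *Alas1* (25.3), in CPM per kb of exon. The list of genes that limit or promote lipid peroxidation, the iron-dependent damage of ferroptosis, had the highest median, 22.6 over 8 genes, all with reads. *Slc3a2*, a subunit of amino acid transporters, had 287 on the same scale, *Sat1*, an enzyme of polyamine breakdown, had 281, and *Gpx4*, which reduces lipid peroxides, had 129. The ferritin chains exceeded each of the 107 genes per kb of exon.

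**Figure D4:**
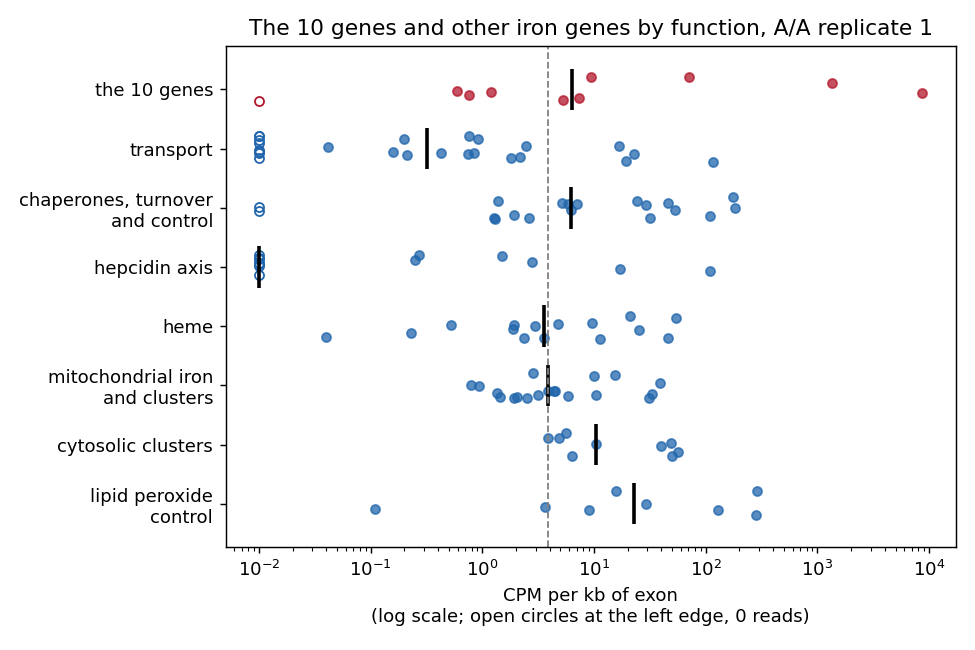
Level of each gene in CPM per kb of exon (log axis) for the 10 genes, in red, and for 7 lists of other iron genes, in blue, with a black bar at each median over all genes of the list, open circles for genes with 0 reads, and a dashed line at the median of protein-coding genes with reads (3.91). The ferritin chains lie right of every other point, and the transport and hepcidin lists have medians of 0.319 and 0, genes at 0 included. The dashed line counts genes with reads only, and the median of all protein-coding genes is 0.214.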

How the data were processed

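According to the methods, the authors made mRNA libraries from total RNA, sequenced them as paired reads of 150 bases and compared genotypes with DESeq2. The submitters' processing notes name HISAT2, StringTie, mm8 and mm10 without roles. The counting tool's settings, the annotation and the use of strand are not given in the sources used here. The file the authors deposited for A/A replicate 1 holds a normalized signal per gene, with no unit stated. Its values above 0 were whole multiples of 1.19 in 100% of cases, within 0.05 of a read, so they behave as whole counts divided by 0.839. Dividing by the step gave back whole counts, which are called reads here. Whether they were tallied reads or estimates rounded to whole numbers is not given, and the counting intervals treat them as tallied. The deposited gene lengths were not used.

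Of the gene identifiers, 99.7% matched GENCODE M21 (GRCm38), and 95.2% of the matched genes had the same coordinates. Exon bases were the union over transcripts inside the deposited gene limits, a choice made after seeing that the limits of *Fth1* differed. The longest coding transcript was measured inside the same limits, which leaves out 63 bases of the main *Fth1* transcript. Levels are CPM (reads per 1000000 reads), with Wilson 95% intervals and a floor of 3 reads, and CPM per kb of exon. Exact binomial intervals were used for shares and ratios. Shared sequence was counted as identical windows of 50 or 150 bases. Of the other iron genes, 7 were matched through a synonym and 1 could not be matched. Those named are the 3 highest of each list and those at 0, except for 1 gene that is not reported here. All 10 members are named, with the genes above the floor that overlap them or share 50-base windows with *Ftl1* or *Fth1*. *Gm6768* was named after its values were seen, and genes that share windows with other members are not named. The members, the iron lists and the cell markers were chosen with earlier results of these data known. Python 3.11.15, numpy 2.4.6, pandas 2.3.3, scipy 1.17.1 and matplotlib 3.10.9 were used. In 3 simulated libraries of 52550 genes, made as whole counts divided by a set factor, 100% of the counts were recovered. That checks the arithmetic only.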

Additional observations from a re-analysis of the deposited data

Results flagged for a closer look

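Reads on 13 genes outside the 10 described were above the floor of 3 reads (0.0955 CPM), and these genes lie over *Ftl1*, share 50-base windows with a ferritin chain or copy *Ncoa4*. No control library was analysed, and the assignment of these reads was not tested. Over *Ftl1*, *Gm22133* on the same strand had 2107 CPM and *Gm10252* on the opposite strand had 3122 CPM, so the reads of *Ftl1* and of both came to 529735, 1.69% of the library. The copies of *Ftl1* ranged widely. *Ftl1-ps1*, annotated as protein-coding, had 243 CPM, *Ftl2-ps* 99.8 CPM and *Gm15590* 60.3 CPM, and of their 50-base windows 57.6%, 54.3% and 63.2% occurred in *Ftl1*. *Ftl1-ps2* had 0.732 CPM, *Gm12164* 0.700 CPM, *Gm5278* 0.191 CPM and *Gm6407* 0.127 CPM, and the first and second of these shared 25% and 16.3% of their windows. The miRNA genes *Mir692-2* (1.05 CPM) and *Gm22774* (0.127 CPM) each had 16.7% of their 50-base windows in *Ftl1*. *Gm6977*, a copy of *Fth1*, had 3.22 CPM, and *Gm6768*, a copy of *Ncoa4*, had 62.6 CPM.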

How the results depend on the processing

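With 1 library, an alternative was compared with the counting interval of the value only, and depth limits what can be said of genes under 3 reads. No paired analysis was possible because only 1 sample was analysed, and for the same reason no replicate could be left out. The share of reads on the 10 genes was 1.56%, 1.63% of reads on protein-coding genes and 1.72% without the 10 highest other genes in the denominator. The ratio of *Ftl1* to *Fth1*, 6.45 per kb of exon, was above 1 under all 5 alternatives: 3.62 with no length correction, 3.24 per kb of the longest coding transcript, 6.67 with copies added and, under the alternatives chosen after seeing the data, 9.36 with all annotated exon bases and 9.35 with the overlapping genes added. The median percentile of the 9 genes with reads, 72.8, was 74.9 by CPM, 60.1 per kb of the longest coding transcript, 66.7 among genes with at least 10 reads, 63.7 among protein-coding genes and 89.96 among all genes with *Steap3* included. Of the other iron genes, 89 were above 3 reads, 89 had at least 10 and 90 had any. By CPM, the percentiles of 7 of the 9 genes were higher and of 2 lower, with the largest shift for *Slc40a1* (16.2 points higher). With a pseudocount of 0.1 in place of 1, log2(CPM + pseudocount) moved past its counting interval for 2 of the 9 genes, *Slc11a2* and *Slc40a1*.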
